A study of Rattus norvegicus with 32 samples.

Results

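The core glycolytic enzymes are the proteins that turn glucose 6-phosphate into pyruvate and lactate, and 10 of their genes, chosen by name as those that carry the pathway in skeletal muscle, are described here: Gpi, Pfkm, Aldoa, Tpi1, Gapdh, Pgk1, Pgam2, Eno3, Pkm and Ldha. Of these, 9 are among the 12901 genes of the deposited table, and Tpi1 was not analysed here. All 9 passed the filter on low counts. Messenger RNA of rat gastrocnemius, a calf muscle, was measured by 3′-end sequencing (QuantSeq) in 32 libraries from male rats aged 20 weeks, on a chow diet per the series title. KO_4C holds 9 libraries of UCP1 knockout rats kept at 4 °C for 2 weeks, and KO_RT holds 9 libraries of UCP1 knockout rats at room temperature, numbered here as in the table's columns (8 to 17, without 12). The matching groups of rats labelled control (wild type in the protocol) are control_4C and control_RT, with 7 libraries each. UCP1 is the uncoupling protein of brown fat. The labels give no strain, allele or breeding scheme of the knockout, and they do not say whether the libraries at the different temperatures came from the same animals. The comparisons ask what prolonged cold does to these genes in muscle and whether the absence of UCP1 changes that.

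Glycolysis yields ATP without oxygen and feeds the mitochondria with pyruvate. In skeletal muscle it is fed by blood glucose and by stored glycogen, and fast fibres hold far more of its enzymes than slow fibres do. Several steps have a form specific to muscle: Pfkm encodes the muscle subunit of phosphofructokinase, Pgam2 the muscle phosphoglycerate mutase and Eno3 the muscle enolase, while Ldha encodes the lactate dehydrogenase subunit that predominates in fast fibres.

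Promoter sequences are shown for 4 of the genes, as RefSeq gives them for the assembly GRCr8. Aldoa, Pgam2 and Gpi are shown because they were called lower in the cold in both genotypes, Gpi less firmly in knockout rats. Ldha is shown because it was called lower in knockout rats and not in control rats. Each stretch covers 250 bases before to 50 bases after an annotated gene start. Capitals mark matches, on either strand, to the motifs searched. The core bound by HIF factors is ACGTG, and the E-box that contains this core is CACGTG. The Sp1 motif is GGGCGG, and the TATA box was searched as TATAAA. The MEF2 motif is given by name. Aldoa has 3 such stretches, and the second, the only one of them with a MEF2 match, is printed. The first held no match, and the third held the ACGTG and GGGCGG matches of Aldoa.
Aldoa, promoter 2, chr1:190837599-190837898, minus strand: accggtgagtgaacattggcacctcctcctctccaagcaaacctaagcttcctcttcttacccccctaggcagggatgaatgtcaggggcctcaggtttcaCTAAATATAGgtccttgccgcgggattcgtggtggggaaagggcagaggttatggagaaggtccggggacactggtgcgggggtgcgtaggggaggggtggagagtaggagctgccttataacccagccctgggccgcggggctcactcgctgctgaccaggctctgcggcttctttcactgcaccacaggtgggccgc
Pgam2, chr14:84897825-84898124, minus strand: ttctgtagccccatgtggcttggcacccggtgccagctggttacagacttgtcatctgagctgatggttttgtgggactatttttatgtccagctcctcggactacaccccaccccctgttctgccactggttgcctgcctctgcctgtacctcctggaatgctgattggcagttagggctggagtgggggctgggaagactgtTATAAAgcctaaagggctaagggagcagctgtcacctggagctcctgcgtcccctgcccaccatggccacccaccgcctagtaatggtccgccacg
Gpi, chr1:95993212-95993511, minus strand: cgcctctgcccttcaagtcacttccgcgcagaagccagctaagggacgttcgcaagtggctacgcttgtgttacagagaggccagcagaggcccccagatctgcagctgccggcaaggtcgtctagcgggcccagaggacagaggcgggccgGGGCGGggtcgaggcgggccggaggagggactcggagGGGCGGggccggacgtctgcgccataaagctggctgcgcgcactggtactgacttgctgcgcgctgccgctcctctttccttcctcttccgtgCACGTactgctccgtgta
Ldha, chr1:106507842-106508141, plus strand: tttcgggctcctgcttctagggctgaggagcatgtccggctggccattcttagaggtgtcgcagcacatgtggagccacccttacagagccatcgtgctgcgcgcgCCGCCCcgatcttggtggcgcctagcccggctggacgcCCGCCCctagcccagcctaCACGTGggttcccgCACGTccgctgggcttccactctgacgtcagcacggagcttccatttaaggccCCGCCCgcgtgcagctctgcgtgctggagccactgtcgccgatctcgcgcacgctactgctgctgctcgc

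The printed Aldoa stretch held 1 match to MEF2, whose letters occurred in 0.565% of all 33469 promoters of the table. It was the 1 stretch with MEF2 among the 10 of the measured genes. Pgam2 held 1 match to TATAAA, found in 14.2% of all promoters and also in Gapdh. In Ldha the CACGTG letters, present in 6.42% of all promoters, overlap with ACGTG matches on both strands. ACGTG was found in 5 of the 10 promoters that the table gives for 8 of the measured genes (1 each of Gpi, Ldha, Aldoa, Gapdh and Pfkm), against 19.3% of all promoters. GGGCGG was found in 4 of these 10 (Gpi, Ldha, Aldoa and Pkm), against 33.1% of all promoters. Eno3 held none of these letters. Pgk1 has no entry. The matches describe letters in these windows and nothing about binding.

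Library totals ran from 7275508 to 25846976 deposited counts. Levels are given in CPM, counts scaled to a common library total after TMM, a factor that evens out differences in RNA composition. The summed levels of marker lists, here and below, are the exception: they were scaled to the library total without the TMM factor. The labelled tissue was borne out by its markers: all 11 skeletal muscle fibre markers were detected in every group, with a summed level of 112476 to 150788 CPM in KO_4C, 128842 to 156154 CPM in KO_RT, 123044 to 148541 CPM in control_4C and 139990 to 160660 CPM in control_RT. On the first principal component, which held 21.7% of the variance, KO_RT replicates 8 and 10 and control_RT replicates 2 and 3 lay at the far end of the room-temperature libraries, with scores of 65.6, 52.0, 60.0 and 41.3. Calls and counts of the cold comparisons that changed when the 4 libraries of highest score were left out are given both ways. These are the room-temperature libraries furthest from the cold ones, so leaving them out is no neutral check of a cold change. Mitochondrial transcripts took a median of 9.28% of counts in KO_4C, 10.64% in KO_RT, 8.54% in control_4C and 10.86% in control_RT. Ucp1 itself was not analysed here, and the genotype labels stand unchecked.

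After 2 weeks at 4 °C, 5 of the 9 enzymes were lower in knockout rats and 6 of 9 in control rats, and none was called higher in either genotype by edgeR or by DESeq2. Aldoa, Pgam2 and Gpi were called lower in both genotypes, though the Gpi call in knockout rats was lost when any of 10 single libraries was left out. The 5 in knockout rats include Pkm, whose row is of uncertain level because its Entrez number is that of a pseudogene in GRCr8. Across all 11594 tested genes, 6.28% were called lower and 7.49% higher in knockout rats, and 8.28% lower and 12.4% higher in control rats (edgeR quasi-likelihood test, Benjamini-Hochberg adjusted p under 0.05). At an unadjusted p under 0.05, which 27.1% of all genes passed in knockout rats and 33.4% in control rats in either direction, 0 enzymes were higher in either genotype. The median log2 change of the 9 enzymes was -0.35 in knockout rats and -0.52 in control rats, beside medians of 0.01 and 0.03 over all tested genes. Counts of 5 and 6 lower enzymes were also found without the 4 libraries of highest component score, though not for the same enzymes. In bulk tissue, fewer cells of a type and less RNA per cell cannot be told apart.

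**Figure D1:**
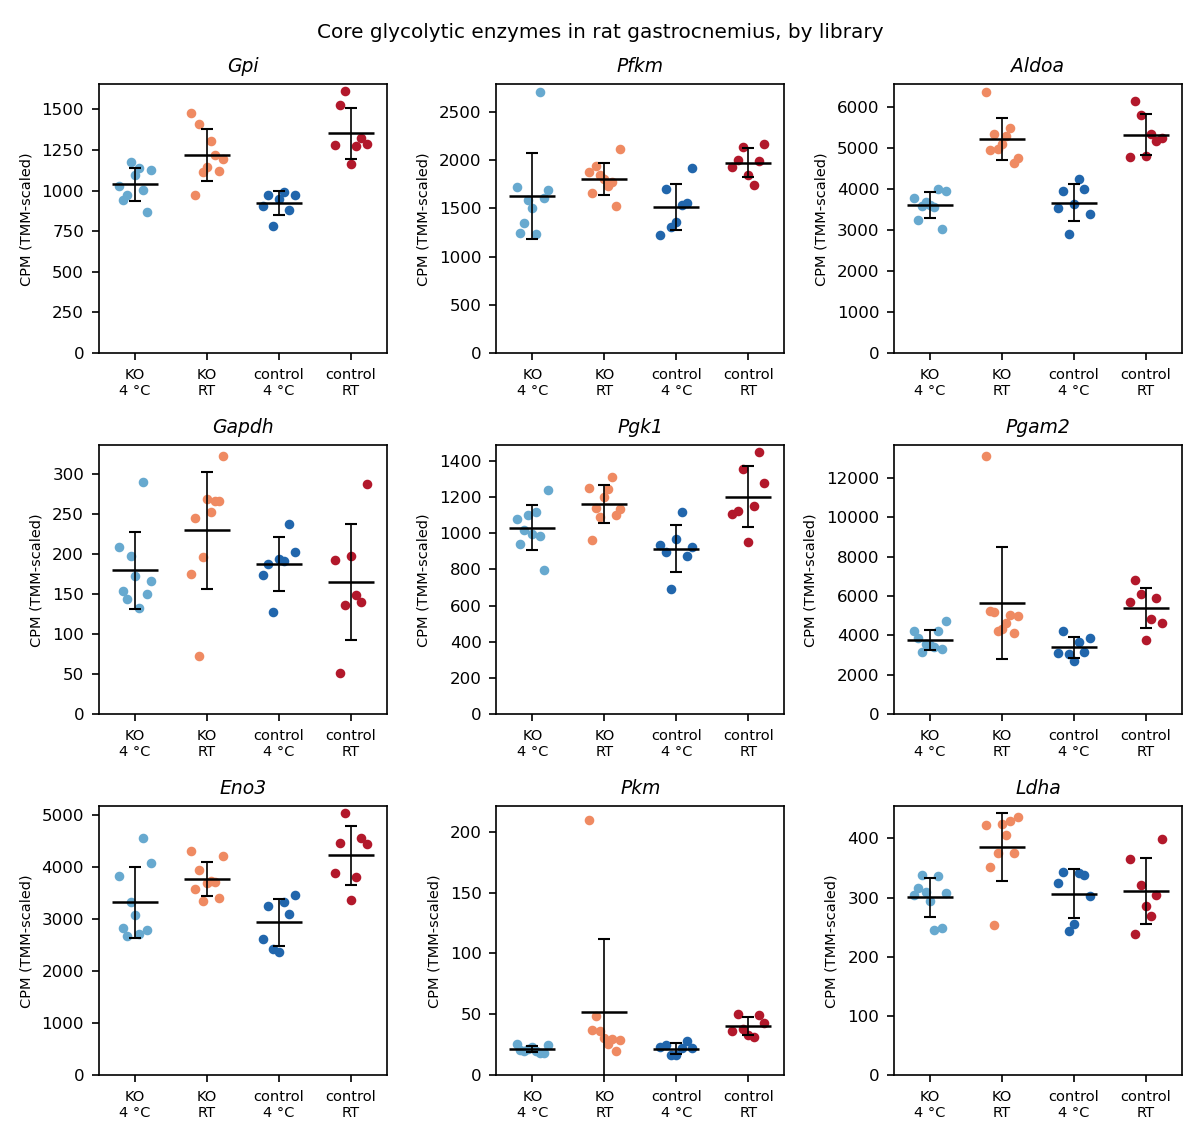
Level of each of the 9 measured enzymes in CPM (TMM-scaled, linear axis from 0), 1 point per library, in KO_4C, KO_RT, control_4C and control_RT. The horizontal line is the group mean and the bar the SD (n = 9 libraries per knockout group and 7 per control group; the lower end of the Pkm bar in KO_RT lies below the axis). Aldoa shows no overlap between temperatures in either genotype, and KO_RT replicate 8 stands far above its group for Pgam2 (13125 CPM) and Pkm (210 CPM).

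The early steps rearrange and phosphorylate the hexose. Gpi (ENSRNOG00000023150), glucose-6-phosphate isomerase, ranged from 869 to 1176 CPM (median 1028) in KO_4C, against 973 to 1481 CPM (median 1196) in KO_RT. In control rats it ranged from 781 to 991 CPM (median 946) in control_4C, against 1161 to 1612 CPM (median 1289) in control_RT. The knockout groups overlapped and the control groups did not. Gpi fell in knockout rats by a log2 change of -0.23 ± 0.08 (SE, adjusted p = 0.0484) and in control rats by -0.55 ± 0.09 (adjusted p = 6.62e-05). The knockout call did not hold without the 4 libraries (-0.15, adjusted p = 0.214) and was lost when any of 10 single libraries was left out. Pfkm (ENSRNOG00000057988), the step at which the pathway is committed, ranged from 1238 to 2706 CPM (median 1582) in KO_4C, against 1527 to 2112 CPM (median 1799) in KO_RT. Its values in control rats were 1225 to 1920 CPM (median 1532) in control_4C, against 1739 to 2170 CPM (median 1990) in control_RT. KO_4C replicate 7 gave the 2706 CPM, with the next highest library at 1721 CPM. The log2 change of Pfkm was -0.15 ± 0.11 in knockout rats (adjusted p = 0.385) and -0.38 ± 0.12 in control rats (adjusted p = 0.0227). It was called in knockout rats without KO_4C replicate 7 (-0.29, adjusted p = 0.0222), and in control rats it was not called without the 4 libraries (-0.36, adjusted p = 0.0595).

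Aldoa (ENSRNOG00000052802), fructose-bisphosphate aldolase, cleaves the phosphorylated hexose into trioses. It ranged from 3028 to 4008 CPM (median 3613) in KO_4C, against 4652 to 6384 CPM (median 5116) in KO_RT. The range was 2909 to 4238 CPM (median 3637) in control_4C, against 4789 to 6162 CPM (median 5248) in control_RT. Every cold library lay below every room-temperature library of its genotype, and the means of the genotypes were close: 3610 ± 316 CPM in KO_4C and 3671 ± 446 CPM in control_4C (SD, n = 9 and 7). The fall was -0.53 ± 0.08 on the log2 scale in knockout rats (SE, adjusted p = 6.49e-06) and -0.54 ± 0.09 in control rats (adjusted p = 5.73e-05). Among the enzymes Aldoa was the 1 that did not overlap between temperatures in knockout rats, where 0.681% of all tested genes were lower without overlap. Gpi, Aldoa and Pkm did not overlap in control rats, where that share was 2.34%.

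The payoff phase oxidises the trioses and makes ATP. Gapdh (ENSRNOG00000018630), glyceraldehyde-3-phosphate dehydrogenase, ranged from 133 to 290 CPM (median 166) in KO_4C, against 73.1 to 322 CPM (median 252) in KO_RT. In control rats its range was 127 to 238 CPM (median 191) in control_4C, against 50.9 to 288 CPM (median 149) in control_RT. Both pairs of groups overlapped widely, and KO_RT replicate 10 and control_RT replicate 2 were the lowest libraries. The log2 changes were -0.35 ± 0.23 in knockout rats (adjusted p = 0.343) and 0.18 ± 0.26 in control rats (adjusted p = 0.664). Without the 4 libraries of highest component score, the change in knockout rats was called (-0.53, adjusted p = 0.0178). The one in control rats then had the other sign (-0.05, adjusted p = 0.878). Gapdh counts are uncertain, since GRCr8 names 81 Gapdh pseudogenes and the authors' handling of reads that match several copies is not given in the sources used here. A separate row, LOC108351137, which the table also describes as a glyceraldehyde-3-phosphate dehydrogenase and to which it gives the same Entrez number, averaged 10.1 ± 2.30 CPM in KO_4C and 16.1 ± 3.46 CPM in KO_RT (SD, n = 9 each). That row was at 9.79 ± 2.39 CPM in control_4C and 16.6 ± 1.80 CPM in control_RT (n = 7 each). It fell in both genotypes, by -0.67 ± 0.15 in knockout rats (SE, adjusted p = 0.00137) and -0.75 ± 0.16 in control rats (adjusted p = 0.00125). Another row, LOC303448, described as similar to this enzyme, averaged 2.35 ± 0.739 CPM in KO_4C and 3.52 ± 1.72 CPM in KO_RT, and 4.59 ± 2.84 CPM in control_4C and 4.20 ± 1.28 CPM in control_RT (SD). Its log2 changes were -0.55 ± 0.28 in knockout rats (SE, adjusted p = 0.192) and 0.12 ± 0.30 in control rats (adjusted p = 0.814).

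Pgk1 (ENSRNOG00000058249), phosphoglycerate kinase, makes the first ATP of this phase. Its levels were 798 to 1242 CPM (median 1020) in KO_4C, against 965 to 1313 CPM (median 1142) in KO_RT. In the control groups they were 690 to 1119 CPM (median 925) in control_4C, against 951 to 1448 CPM (median 1153) in control_RT. Both pairs overlapped. The log2 change was -0.17 ± 0.09 in knockout rats (SE, adjusted p = 0.202) and -0.39 ± 0.10 in control rats (adjusted p = 0.00416), which was called. Pgam2 (ENSRNOG00000013532), the muscle phosphoglycerate mutase, ranged from 3130 to 4743 CPM (median 3561) in KO_4C, against 4127 to 13125 CPM (median 4998) in KO_RT. It ranged from 2698 to 4217 CPM (median 3169) in control_4C, against 3773 to 6816 CPM (median 5690) in control_RT. All 7 control_4C libraries lay below the control_RT mean, and both pairs of groups overlapped. Pgam2 fell by -0.58 ± 0.16 in knockout rats (adjusted p = 0.0136) and by -0.67 ± 0.19 in control rats (adjusted p = 0.00968). KO_RT replicate 8, at 13125 CPM where the next library had 5226 CPM, sets the size of the knockout value, which was -0.34 ± 0.10 without it (adjusted p = 0.0209).

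Eno3 (ENSRNOG00000004078), the muscle enolase, ranged from 2678 to 4551 CPM (median 3071) in KO_4C, against 3342 to 4305 CPM (median 3709) in KO_RT. The control groups spanned 2367 to 3465 CPM (median 3096) in control_4C, against 3369 to 5027 CPM (median 4445) in control_RT. In knockout rats most cold libraries lay below all KO_RT libraries and 1, at 4551 CPM, lay above them all, while in control rats the ranges touched at their ends. The log2 change was -0.18 ± 0.10 in knockout rats (SE, adjusted p = 0.245) and -0.52 ± 0.11 in control rats (adjusted p = 0.00126). Pkm (ENSRNOG00000011329), pyruvate kinase, was at 18 to 25.2 CPM (median 20.9) in KO_4C, against 19.7 to 210 CPM (median 30.2) in KO_RT. In control rats it was at 16.2 to 27.9 CPM (median 22.3) in control_4C, against 31.5 to 50.4 CPM (median 37.8) in control_RT. Only KO_RT replicate 8, at 210 CPM, exceeded 50.4 CPM. The fall in knockout rats was -1.27 ± 0.31 (adjusted p = 0.00581), or -0.61 ± 0.13 without that library (adjusted p = 0.00167). In control rats the change was -0.88 ± 0.35 with an adjusted p = 0.0733, and it was called once KO_RT replicate 8 was left out of the shared estimate of spread (-0.89 ± 0.15, adjusted p = 6.06e-05), as it was without the 4 libraries (-0.83, adjusted p = 0.000113). The table gives this row the Entrez number that GRCr8 lists as the pseudogene Pkm-ps20, so the level of this row is uncertain, and the splice forms of pyruvate kinase were not separated.

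Ldha (ENSRNOG00000013009), the lactate dehydrogenase subunit that favours lactate formation, ranged from 246 to 339 CPM (median 308) in KO_4C, against 254 to 436 CPM (median 406) in KO_RT. Its range was 244 to 343 CPM (median 324) in control_4C, against 238 to 399 CPM (median 304) in control_RT. KO_4C and control_4C spanned nearly the same range, KO_RT had the highest median, and both pairs overlapped. Ldha fell in knockout rats by -0.36 ± 0.10 (SE, adjusted p = 0.0117), with all 9 cold libraries below the KO_RT mean. In control rats the log2 change was -0.02 ± 0.11 (adjusted p = 0.907), and its sign turned when library totals alone set the scale (0.13). GRCr8 names 30 Ldha pseudogenes, 19 of Pkm, 9 of Aldoa and 8 of Pgk1, so reads of these genes may have been split as well.

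**Figure D2:**
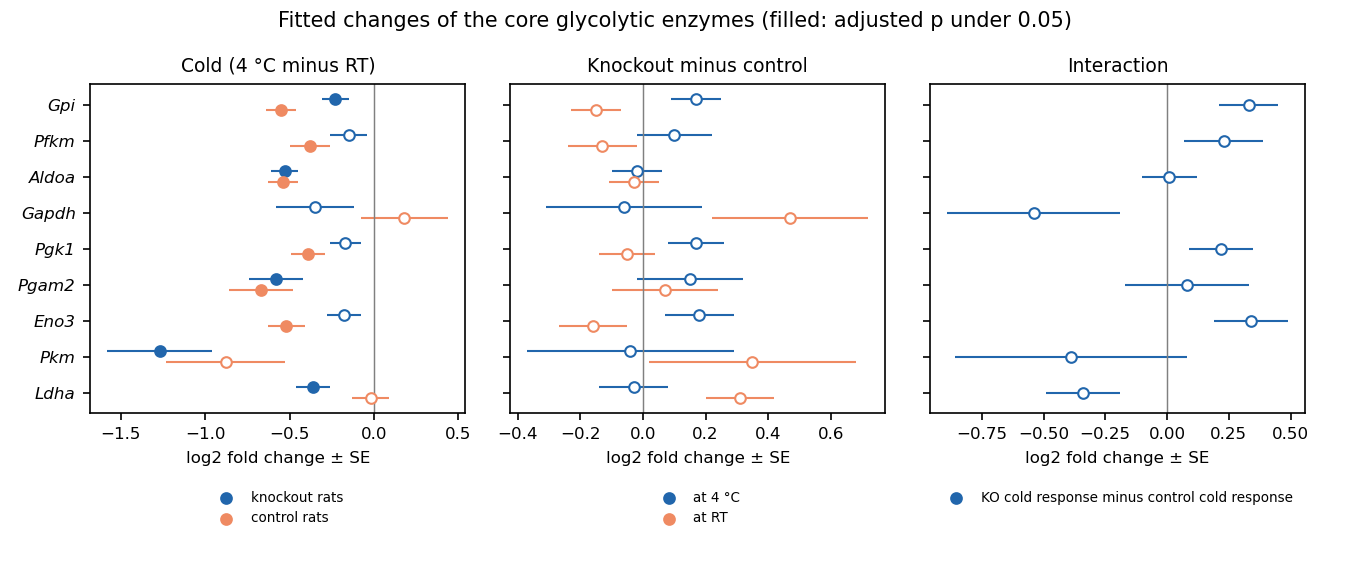
Fitted log2 fold change ± SE of the 9 enzymes for cold (4 °C minus room temperature, in knockout and in control rats), knockout minus control (at 4 °C and at room temperature) and the interaction. Filled symbols passed an adjusted p of 0.05: 5 enzymes in the cold in knockout rats, 6 in control rats and 0 in the other panels.

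The genotypes were then compared at each temperature. At 4 °C, 0 of 9 enzymes were called between KO_4C and control_4C by edgeR, and DESeq2 also called 0, where edgeR called 0.0518% of all tested genes. With an unadjusted p under 0.05 there was 1 enzyme, Gpi, where 14.6% of all genes passed: it averaged 1039 ± 103 CPM in KO_4C and 922 ± 74.0 CPM in control_4C (SD), a log2 difference of 0.17 ± 0.08 (SE, adjusted p = 0.337). At room temperature, 0 of 9 were called by edgeR and 0 by DESeq2, where edgeR called 2.61% of all genes. The unadjusted threshold was passed by Ldha alone, against 17.2% of all genes. Ldha averaged 386 ± 57.6 CPM in KO_RT and 312 ± 55.8 CPM in control_RT (SD), a log2 difference of 0.31 ± 0.11 (SE, adjusted p = 0.113), with 8 of 9 KO_RT libraries above the control_RT mean. It was called without KO_RT replicate 10, the lowest library of its group (0.35, adjusted p = 0.0227). The remaining room-temperature differences lay between -0.16 ± 0.11 for Eno3 and 0.47 ± 0.25 for Gapdh, and the enzymes' median difference was 0.10 at 4 °C and -0.03 at room temperature.

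By mean level, the groups fell in the same order for Gpi, Pfkm, Pgk1 and Eno3: KO_4C and KO_RT lay between control_4C, the lowest, and control_RT, the highest. For these 4 genes the fitted cold change was smaller in knockout than in control rats, and the interaction (the fitted cold change in knockout rats less the one in control rats) was 0.33 ± 0.12 for Gpi (SE, adjusted p = 0.223), 0.23 ± 0.16 for Pfkm (adjusted p = 0.57), 0.22 ± 0.13 for Pgk1 (adjusted p = 0.49) and 0.34 ± 0.15 for Eno3 (adjusted p = 0.327). Ldha went the other way, with an interaction of -0.34 ± 0.15 (adjusted p = 0.327). No enzyme was called in the interaction by edgeR or by DESeq2, where edgeR called 0.0259% of all genes. Gpi, Eno3 and Ldha had an unadjusted p under 0.05, a share of 3 in 9 beside 12.9% of all genes. Thus a call in 1 genotype and not in the other, as for Pfkm, Pgk1, Eno3, Pkm and Ldha, was not shown to be a difference between the genotypes. For Aldoa the interaction was 0.01 ± 0.11 (adjusted p = 0.988), and its sign changed with the scaling (-0.05 with library totals).

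The 9 enzymes together took 1.52% ± 0.123 of all counts in KO_4C and 1.87% ± 0.264 in KO_RT (SD, n = 9 each). In control rats the share was 1.47% ± 0.134 in control_4C and 1.90% ± 0.173 in control_RT (n = 7 each). The KO_4C libraries spanned 1.33% to 1.71%, against 1.63% to 2.54% in KO_RT, where replicate 8 held the 2.54% and the next library 1.90%. The control_4C libraries spanned 1.30% to 1.69%, against 1.66% to 2.14% in control_RT. In both genotypes the ranges overlapped narrowly at the edge. Counted outside mitochondrial genes, the mean shares were 1.69% in KO_4C, 2.10% in KO_RT, 1.60% in control_4C and 2.14% in control_RT. As Aldoa, Pgam2 and Eno3 make up most of the sum, it follows those genes.

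**Figure D3:**
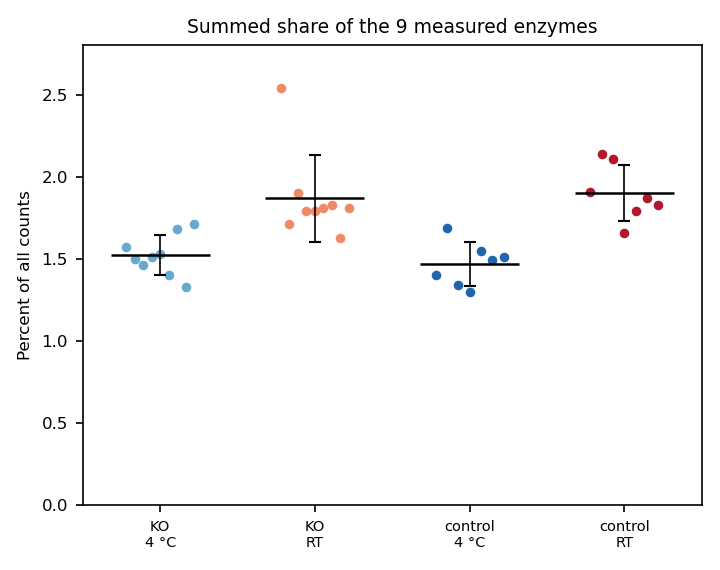
Summed share of the 9 enzymes in all counts of a library (percent, linear axis from 0), 1 point per library, with the group mean and SD (n = 9 per knockout group and 7 per control group). Cold libraries lie mostly below room-temperature libraries in both genotypes, and KO_RT replicate 8 stands at 2.54%.

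The enzymes did not vary as 1 block between libraries of the same group. Over the 32 libraries, the deviations from group means were most alike by Pearson r for Pgam2 and Pkm (Pearson r 0.84, Spearman rho 0.63), Pfkm and Eno3 (0.82 and 0.83), Gapdh and Ldha (0.75 and 0.55) and Gpi and Aldoa (0.71 and 0.71). By Spearman rho, Pfkm and Eno3 came first and Pgam2 and Eno3 next (Pearson r 0.61, Spearman rho 0.77). The lowest Pearson r was that of Gpi and Gapdh (-0.35, rho -0.24), and the lowest rho that of Gapdh and Pkm (-0.32, Pearson r -0.28). These are descriptions over libraries that share normalization, and KO_RT replicate 8 was the highest library of its group for both Pgam2 and Pkm. Gapdh departed furthest downwards, by -1.55 in KO_RT replicate 10 and -1.54 in control_RT replicate 2 on the log2 scale. Ldha was below its group mean in both of these libraries. In control_4C replicate 3 all 9 enzymes were below their group means, and in control_4C replicate 5 none was.

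**Figure D4:**
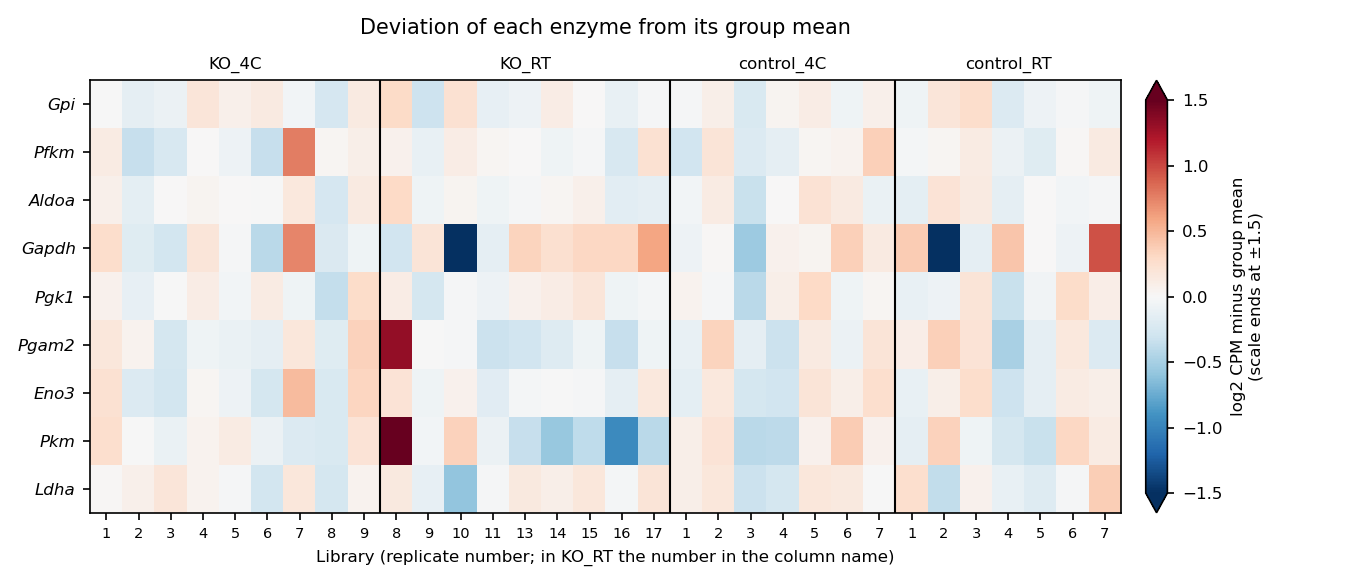
Deviation of each enzyme (rows) in each of the 32 libraries (columns, by group and replicate number) from its group mean, in log2 CPM on a colour scale that ends at ±1.5. Gapdh is lowest in KO_RT replicate 10 and control_RT replicate 2, and Pkm is highest in KO_RT replicate 8, at 2.45.

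Among 6934 other genes with a mean of at least 5 CPM, those whose log2 CPM followed the mean of the standardised enzymes most closely over the 32 libraries were Actn3, the fast-fibre alpha-actinin (Pearson r 0.90), Foxn3, a forkhead transcription factor (0.88), Agtpbp1, a carboxypeptidase that acts on tubulin (0.88), Kif1b, a kinesin motor (0.87), Mtdh (0.87) and Ccdc91 (0.87). The most opposed were Zmiz1, a transcriptional coactivator (-0.86), Rab31, a GTPase of vesicle traffic (-0.86), and Tspo, a protein of the outer mitochondrial membrane (-0.85). With the group means taken out, the closest were Mybpc2, the fast myosin-binding protein C (0.89), Tnni2, fast troponin I (0.84), Myh1, a fast myosin heavy chain (0.82), Hrc, a calcium-binding protein of the sarcoplasmic reticulum (0.82), Tnnc2, fast troponin C (0.81), and Actn3 (0.81). Only Actn3 was on both lists.

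Some markers of fibre type and of other cells were also called in the cold comparisons. Over all tested genes, 7.49% were called higher and 6.28% lower in knockout rats, and 12.4% higher and 8.28% lower in control rats. A count near these shares is no result about its cell type. The summed levels are without the TMM factor. Of 8 slow-fibre markers, 7 rose in the cold in knockout rats and 7 in control rats, and their summed level was 10955 to 21685 CPM in KO_4C, against 6194 to 14173 CPM in KO_RT. In control rats that sum was 14195 to 21894 CPM in control_4C, against 6085 to 11663 CPM in control_RT, with no overlap. The 11 skeletal muscle fibre markers include fast-fibre genes. Of the 11, 3 fell in knockout rats and 6 in control rats (4 without the 4 libraries of highest component score), and 0 rose. Of 6 adipocyte markers, 1 rose in knockout and 4 in control rats, with summed levels of 204 to 279 CPM in KO_4C, 78.4 to 190 CPM in KO_RT, 181 to 280 CPM in control_4C and 67.8 to 111 CPM in control_RT. Of 6 macrophage markers, 2 rose in each genotype (3 in knockout rats without the 4 libraries), with sums of 64.4 to 121 CPM in KO_4C, 35.1 to 51.0 CPM in KO_RT, 72.2 to 147 CPM in control_4C and 45.6 to 70.6 CPM in control_RT. Of 5 erythroid markers, 1 rose in knockout and 4 in control rats (2 without the 4 libraries), with sums of 528 to 1224 CPM in KO_4C, 223 to 765 CPM in KO_RT, 399 to 3763 CPM in control_4C and 210 to 749 CPM in control_RT. Of 4 smooth muscle markers, 0 rose in knockout and 3 in control rats (1 without the 4 libraries), with sums of 140 to 443 CPM in KO_4C, 113 to 340 CPM in KO_RT, 140 to 319 CPM in control_4C and 107 to 158 CPM in control_RT. Of 4 Schwann cell markers, 2 rose in knockout and 0 in control rats, with sums of 50.5 to 173 CPM in KO_4C, 25.8 to 146 CPM in KO_RT, 63.4 to 105 CPM in control_4C and 32.8 to 207 CPM in control_RT. Of 4 endothelial markers, 1 rose in each genotype (2 in knockout rats without the 4 libraries), with sums of 83.2 to 128 CPM in KO_4C, 58.1 to 100 CPM in KO_RT, 77.5 to 99.3 CPM in control_4C and 68.5 to 88.6 CPM in control_RT. Of 5 fibroblast markers, 1 fell in knockout rats and 1 rose in control rats (2 and 0 without the 4 libraries), with sums of 489 to 1254 CPM in KO_4C, 764 to 1735 CPM in KO_RT, 719 to 1317 CPM in control_4C and 630 to 1078 CPM in control_RT. No marker of these lists was at 0 in a whole group. The part of any of these in the lower enzyme levels was not tested.

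The neighbouring steps were read from lists of genes chosen with earlier results of these data known. Over all tested genes, 7.49% were called higher and 6.28% lower in the cold in knockout rats. In control rats these shares were 12.4% and 8.28%. Here and in the lists that follow, a count near these shares is no result about the list. Among 13 tested hexokinases and other isozymes, 3 rose and 0 fell in the cold in knockout rats, and 2 rose and 1 fell in control rats. Ldhb, the lactate dehydrogenase subunit of oxidative fibres, averaged 330 ± 50.6 CPM in KO_4C and 190 ± 47.5 CPM in KO_RT (SD). In control rats it averaged 295 ± 73.9 CPM in control_4C and 176 ± 34.5 CPM in control_RT. It rose in knockout rats by 0.79 ± 0.14 on the log2 scale (SE, adjusted p = 0.000123) and in control rats by 0.74 ± 0.16 (adjusted p = 0.000973). Pgam1, the widely expressed phosphoglycerate mutase, rose in knockout rats (0.35 ± 0.10, adjusted p = 0.0136), where its log2 change in control rats was 0.05 ± 0.11 (adjusted p = 0.793). Adpgk, an ADP-dependent glucokinase, rose in knockout rats (0.39, adjusted p = 0.0444), a call that did not hold without the 4 libraries (0.28, adjusted p = 0.169). Bpgm, bisphosphoglycerate mutase, fell in control rats (-0.72 ± 0.13, adjusted p = 0.000181).

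Hk2, the hexokinase that phosphorylates glucose in muscle, rose in the cold in control rats (0.34 ± 0.11, adjusted p = 0.0202), and its log2 change in knockout rats was -0.14 ± 0.09 (adjusted p = 0.376). It averaged 80.8 ± 8.42 CPM in KO_4C, 88.8 ± 16.9 CPM in KO_RT, 79.9 ± 9.83 CPM in control_4C and 63.0 ± 5.87 CPM in control_RT (SD). At room temperature it was the 1 isozyme higher in knockout than in control rats (0.49 ± 0.10, adjusted p = 0.0106), a call that ended when KO_RT and control_RT were fitted alone, where 0 of all tested genes were called. Its interaction, -0.48 ± 0.14, had an adjusted p = 0.141.

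As a share of the counts of each pair, Ldhb made up 40.1% to 61.6% of Ldhb and Ldha (median 52.1%) in KO_4C, against 27.5% to 43.1% (median 31.5%) in KO_RT. In control rats its share was 42.2% to 62.9% (median 45.9%) in control_4C, against 29.4% to 43.7% (median 33.4%) in control_RT. Most cold libraries stood above all room-temperature libraries of their genotype. Pgam1 was a median of 1.0% of Pgam1 and Pgam2 in KO_4C, 0.622% in KO_RT, 0.969% in control_4C and 0.599% in control_RT. Eno1 was a median of 0.445% of Eno1 and Eno3 in KO_4C, 0.383% in KO_RT, 0.454% in control_4C and 0.245% in control_RT. Capture of 3′ ends can differ between genes, so a share is compared between groups and not read as a ratio of enzymes.

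**Figure D5:**
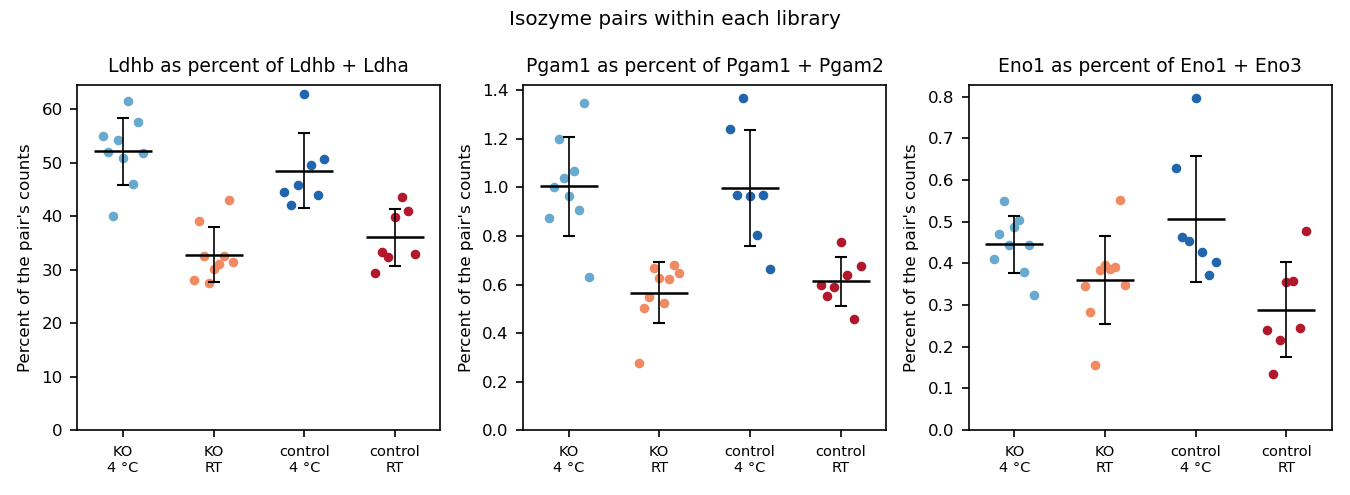
Share of Ldhb, Pgam1 and Eno1 in the summed counts of their pairs (percent, linear axes from 0), 1 point per library, with group mean and SD (n = 9 per knockout group and 7 per control group). The Ldhb share has its median at 52.1% in KO_4C, 31.5% in KO_RT, 45.9% in control_4C and 33.4% in control_RT.

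Glycogen genes supply the pathway with glucose 1-phosphate. Of 14 tested, 2 rose and 3 fell in knockout rats and 1 rose and 6 fell in control rats. Pygm, muscle glycogen phosphorylase, fell in knockout rats (-0.46 ± 0.08, adjusted p = 6.05e-05) and in control rats (-0.35 ± 0.09, adjusted p = 0.00375). Pgm1, phosphoglucomutase, fell in knockout rats (-0.28, adjusted p = 0.0088) and in control rats (-0.49, adjusted p = 0.00015). Phkb, a regulatory subunit of phosphorylase kinase, fell in knockout rats (-0.58, adjusted p = 0.000165) and in control rats (-0.51, adjusted p = 0.0022). Gbe1, the branching enzyme, rose in knockout rats (0.57, adjusted p = 0.000999) and in control rats (0.84, adjusted p = 5.85e-05). Of 9 genes of fructose 2,6-bisphosphate control and the gluconeogenic bypass, 0 rose and 1 fell in knockout rats, while 2 rose and 2 fell in control rats. G6pc3, a glucose-6-phosphatase, fell in knockout (-0.31, adjusted p = 0.0336) and control rats (-0.42, adjusted p = 0.00698), and its knockout call did not hold without the 4 libraries (-0.26, adjusted p = 0.115). In control rats Pck1, phosphoenolpyruvate carboxykinase, rose (1.41 ± 0.35, adjusted p = 0.00425), Pfkfb2 rose (1.14, adjusted p = 0.0353) and Pfkfb1 fell (-0.28, adjusted p = 0.0488). Without the 4 libraries the glycogen counts were 2 and 3 in knockout rats and 1 and 4 in control rats.

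Of 9 tested genes of glucose entry, lactate transport and the glycerol phosphate shuttle, 2 rose and 2 fell in knockout rats, and 1 rose and 2 fell in control rats. Slc16a3, the monocarboxylate transporter MCT4 that exports lactate from fast fibres, averaged 248 ± 29.6 CPM in KO_4C and 383 ± 52.2 CPM in KO_RT (SD), with no overlap. It averaged 257 ± 34.7 CPM in control_4C and 392 ± 37.8 CPM in control_RT, again with no overlap. The log2 changes were -0.62 ± 0.09 in knockout rats (SE, adjusted p = 4.06e-06) and -0.61 ± 0.10 in control rats (adjusted p = 5.85e-05). Gpd1, cytosolic glycerol-3-phosphate dehydrogenase, fell in knockout rats (-0.35, adjusted p = 0.00615) and in control rats (-0.84, adjusted p = 1.64e-06). Slc2a4, the insulin-responsive glucose transporter GLUT4, rose in knockout rats (0.35 ± 0.10, adjusted p = 0.0112), where control rats gave 0.24 ± 0.11 (adjusted p = 0.108). Gpd1l rose in knockout rats (0.29, adjusted p = 0.00203). Slc2a1, the basal glucose transporter, was called higher in control rats (0.94, adjusted p = 0.0213) but not without the 4 libraries (0.68, adjusted p = 0.108).

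Of 13 genes that govern pyruvate entry into mitochondria, 2 rose and 1 fell in knockout rats, and 3 rose and 1 fell in control rats. Pdp1, a phosphatase that activates pyruvate dehydrogenase, rose in knockout rats (0.43, adjusted p = 0.0137) and in control rats (0.53, adjusted p = 0.00517). Pdp2, its partner form, rose in knockout rats (0.93, adjusted p = 0.00248), and Pdk2, an inhibiting kinase, fell there (-1.07, adjusted p = 0.0145). In control rats Mpc2, a subunit of the mitochondrial pyruvate carrier, rose (1.56 ± 0.30, adjusted p = 0.000517), as did Pdhb, a subunit of pyruvate dehydrogenase (0.47, adjusted p = 0.0119), while Pdk4 fell (-0.85, adjusted p = 0.0405). The calls of Pdk2 and Pdk4 did not hold without the 4 libraries (adjusted p = 0.104 and 0.0642). Of 10 side-branch genes, 1 rose in each genotype, near the shares of all tested genes called higher (7.49% in knockout and 12.4% in control rats). This gene was Tkt, the transketolase of the pentose phosphate pathway (0.37 in knockout rats, adjusted p = 0.00643, and 0.33 in control rats, adjusted p = 0.0269).

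Of 15 tested regulators of glycolytic genes, 1 rose and 1 fell in knockout rats, and 5 rose and 0 fell in control rats. Esrrg, a nuclear receptor of oxidative muscle, averaged 33.1 ± 4.91 CPM in KO_4C and 20.4 ± 4.07 CPM in KO_RT, and 30.6 ± 3.87 CPM in control_4C and 18.9 ± 2.93 CPM in control_RT (SD). It rose without overlap in both genotypes, by 0.70 ± 0.11 in knockout rats (SE, adjusted p = 3.96e-05) and 0.69 ± 0.13 in control rats (adjusted p = 0.000275). Usf1 and Esrra rose in control rats (1.02 and 0.36, adjusted p = 0.0112 and 0.0261), and Mef2c fell in knockout rats (-0.30, adjusted p = 0.0434). The calls of Esrra and Mef2c did not hold without the 4 libraries (adjusted p = 0.0883 and 0.188). Without these libraries Epas1, a hypoxia-inducible factor subunit, was called lower in knockout rats (-0.24, adjusted p = 0.0149), and 4 regulators rose in control rats. Between the genotypes, Hk2 at room temperature was the only gene of these 7 lists that edgeR called over all 32 libraries. Without the 4 libraries, Mpc2 (0.92, adjusted p = 0.00171) and Pdhb (0.40, adjusted p = 0.0248) were also called higher in KO_RT than in control_RT, as were 3 regulators, Usf1 among them (0.75, adjusted p = 0.0188), while 1 regulator was lower. The Mpc2 interaction was then called as well (-1.25, adjusted p = 0.00426), where over all libraries it was -1.22 with an adjusted p = 0.169. These genes were singled out after their values were seen.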

How the data were processed

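Per Ensembl gene, the authors deposited read counts as whole numbers. The normalised signal in the second table was deposited by the authors as the count divided by 1 size factor per library (0.523 to 2.065). The submitters' processing notes name R 3.4.3, DESeq2 1.18.1 and Rnor_6.0. Neither aligner nor counter is given in the sources used here. Trizol RNA (500 ng) went into QuantSeq libraries read forward over 50 bases, per the labels' protocols. All deposited counts were even. The tests used the counts, and the signal served to check them.

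The counts were tested with edgeR 4.0.16 under R 4.3.3: filterByExpr (minimum count 10; 11594 genes tested, 1307 not), TMM, a robust quasi-likelihood fit of 1 mean per group over all 32 libraries, and Benjamini-Hochberg adjustment over all tested genes per contrast. SE is the absolute log2 change over the square root of F. The pipeline was tested on simulated counts with changes in control_4C, set in genes picked at random over a wide range of levels. It recovered 14 of 50 genes at a log2 change of -0.5 and 16 of 50 at 0.5. At -1 it recovered 35 of 50, and at 1 it recovered 36 of 50. Of 11296 unchanged genes, 6 were called. Far fewer genes were changed in the simulation than were called in the cold, which makes its adjusted cutoff stricter. The recovered counts are thus no measure of power for the enzymes. The lack of a call is no evidence that a gene did not change. P-values measure the spread between libraries, whose origin in separate animals the labels do not state. Alternatives included DESeq2 1.42.0, other scalings and filters, and leaving out each library.

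The members and lists were chosen with earlier results of these data known. The text names the members, at most 4 called genes of smallest p per list and cold contrast, and the genes most like or opposed to the members (log2 CPM, prior count 2); genes closest within groups were added after the data were seen. Symbols came from the table (11693 genes), GRCr8 names by Entrez number (11138 matches) and promoters (8 of 9 members) from RefSeq. Titles and descriptions number the KO_RT samples differently, so KO_RT libraries carry the number of their column and are paired with no other library. Gene positions of Rnor_6.0 were not used. From the list of regulators 1 gene, and from the promoter search 1 motif, is not reported here.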

Additional observations from a re-analysis of the deposited data

Results flagged for a closer look

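Dixon's test at 95% checked 40 sets of values, each a gene or the summed share in a group, for a library far from its group. Of these sets 7 were marked, where chance marks about 1 in 20 (5%) of independent sets. The sets share libraries and the summed share contains the enzymes, so the 7 are not separate findings. In KO_RT, replicate 8 was the highest library for Pgam2 (13125 CPM, next 5226), Pkm (210 CPM, next 48.9), Aldoa (6384 CPM, next 5498) and the summed share of counts (2.54%, next 1.90%). In the same group, replicate 10 was the lowest for Ldha (254 CPM, next 352). In KO_4C, replicate 7 was the highest for Pfkm (2706 CPM, next 1721) and for Gapdh (290 CPM, next 209). The reasons for these values were not tested.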

How the results depend on the processing

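The 5 lower enzymes in the cold in knockout rats became 2 at an adjusted p of 0.01 and 3 with library totals alone as the scale, and the 6 in control rats were 5 to 7 under the 12 alternatives that left out no single library. That scale moves the median log2 change of all genes from 0.012 to 0.1 in knockout rats and from 0.031 to 0.186 in control rats, with 1482 genes higher and 441 lower in knockout rats (868 and 728 with TMM) and 2433 and 408 in control rats (1439 and 960). It ended the calls of Gpi (-0.14) and Ldha (-0.27) in knockout rats and of Pfkm (-0.23) in control rats. Over 10 alternative fits, DESeq2 among them, the adjusted p of Gpi in knockout rats ran from 0.0199 to 0.214. Leaving out single libraries ended the call of Gpi in knockout rats alone, and gave 0 to 1 enzymes higher in KO_RT than in control_RT. Signs turned, with no call, without the 4 libraries of highest component score. They turned for Gapdh (-0.05) in the cold in control rats, Pgam2 (-0.12) and Pkm (-0.4) at room temperature and the Pkm interaction (0.35). They also turned for Pkm with DESeq2 (-0.36 at room temperature, 0.31 in the interaction), for Ldha in the cold in control rats (0.13) and the Aldoa interaction (-0.05) with library totals, and for the Aldoa interaction (-0.02) among genes of at least 5 CPM. With single libraries left out, the cold change of Ldha in control rats ran from -0.08 to 0.04. At room temperature the genotype difference ran from -0.21 to 0.12 for Pgam2 and from -0.34 to 0.45 for Pkm; at 4 °C it ran from -0.03 to 0.15 for Pfkm, -0.07 to 0.01 for Aldoa and -0.1 to 0.03 for Pkm. The interaction ran from -0.04 to 0.05 for Aldoa and -0.51 to 0.28 for Pkm. The causes were not tested.

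Counts over all genes moved more. At an adjusted p of 0.01 they were 799 in the cold in knockout rats (1596), 1209 in control rats (2399), 0 between genotypes at 4 °C (6), 21 at room temperature (303) and 0 in the interaction (3). The count at room temperature was 577 with DESeq2, 0 in a fit of these groups alone, 708 without the 4 libraries and 80 (without control_RT replicate 3) to 792 (without KO_RT replicate 10) with single libraries left out. At 4 °C it was 121 with RLE factors, 0 with library totals, 128 with TMM factors without the 20 most abundant genes or without the enzymes, 3 with no filter, 236 among genes of at least 5 CPM, 436 with DESeq2, 0 for these groups alone, with or without the replicate block, 81 with counts divided by 2 and 0 to 556 with single libraries left out. In the interaction it was 1 with library totals, 1 with no filter, 112 with DESeq2, 288 without the 4 libraries and 0 to 226 with single libraries left out. The summed share outside mitochondrial genes was 1.69% in KO_4C, 1.6% in control_4C and 2.14% in control_RT.

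Deviations of same-numbered libraries correlated at -0.22 to 0.19 between control_4C and control_RT, where 0 of 7 matched its own number best. Between KO_4C and control_4C they correlated at -0.07 to 0.22, and 3 of 7 matched their own number best. With 7 pairs each, a link between same-numbered libraries was neither shown nor excluded. Titles and descriptions number the KO_RT samples differently, so the block was fitted, for the compared groups alone, only to comparisons without KO_RT (a setting added after the data were seen). With the replicate block, 7 enzymes were lower in the cold in control rats, with Pkm added (-0.91, adjusted p = 0.000239), and 0 enzymes and 0 genes were called between genotypes at 4 °C. The Pkm call is not owed to the block alone, since that fit also left out KO_RT replicate 8. Without that library and with no block, Pkm was called too (-0.89, adjusted p = 6.06e-05). Pkm had the lowest mean CPM of the 9 enzymes in each of the 4 groups, so its relative counting error is the largest. Its widest departure from a group mean was KO_RT replicate 8 (210 CPM). The part of counting error in the spread of Pkm was not tested.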
